A study of Homo sapiens with 6 samples.

Results

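Ribosome biogenesis factors are the nucleolar proteins that transcribe, cut, modify and fold ribosomal RNA and build it into the small and large ribosomal subunits. They were followed here in E1, a colon cancer line described as metastatic and obtained in vivo, against HCT116, an established colon cancer line described as poorly metastatic. Each line had 3 Affymetrix arrays. The cell line label of the E1 samples also reads HCT116, and the labels name no treatment, passage or host for E1. Whether the 3 arrays of a line came from separate cultures is not stated, so a p-value here reflects array-to-array spread that could be technical.

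The factors were chosen by gene symbol from the platform annotation: names that begin with RRP, UTP, NOP or NOL and a digit, the RNA polymerase I subunits POLR1A to POLR1H, and 15 named genes such as FBL, NCL and NPM1. A probe set had to carry exactly 1 symbol. This gave 45 genes with 72 probe sets, of 11963 genes with 19065 probe sets in all. Of the 15 named genes 11 were measured in this way. A further 15 probe sets that carry several symbols, among them those of BOP1, DKC1 and NOP56, were left out. Of the 45, 42 are factors of ribosome synthesis. The other 3 share only the form of the name: NOL3, an inhibitor of apoptosis, NOL4, a gene of neural tissue, and NOP14-AS1, an antisense RNA of the NOP14 locus.

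Ribosome synthesis starts in the nucleolus, where RNA polymerase I transcribes the precursor of the 18S, 5.8S and 28S ribosomal RNAs. Small nucleolar ribonucleoproteins guide methylation and pseudouridylation of this precursor, a large complex called the small subunit processome shapes its 5' part into the 40S subunit, and other assembly factors turn its 3' part into the 60S subunit. Growing cells, tumour cells among them, spend much of their energy on this pathway, and the transcription factor MYC is known to drive many of its genes. MYC binds the E-box CACGTG.

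Promoter sequences are shown here because many of the 45 genes share that motif at the transcription start. RefSeq promoter windows on GRCh38.p14, from 250 bases before to 50 bases after the start, were found for 40 of the 45 genes. They were not found for NOL10, NOLC1, POLR1E, RRP12 and RRP1B. CACGTG, which reads the same on both strands, was present in 16 of the 40 windows (40%) and in 909 of the 9563 windows of all measured genes (9.51%). In 14 of the 40 (35.0%) it began within 50 bases of the start, which was true of 3.82% of all windows. The GC box GGGCGG, searched on both strands, was as common as elsewhere, in 62.5% and 63.1% of windows. TATAAA, searched on both strands, was in 1 of the 40 (UTP20) and in 8.3% of all windows. None of these motifs contains another, and a match is a description of the sequence and not of binding. All 3 E1 arrays lay below HCT116 for 6 of the 16 genes with CACGTG and 5 of the 24 without it, where 10.7% of all genes did. The 5 without it are RRP8, RRP1, NOL12, RRP7A and POLR1B. From the 6 that carry it, the windows of 3 genes described below are given 5' to 3' on the gene's strand, with CACGTG in capitals.
FBL, chr19:39846330-39846629, minus strand: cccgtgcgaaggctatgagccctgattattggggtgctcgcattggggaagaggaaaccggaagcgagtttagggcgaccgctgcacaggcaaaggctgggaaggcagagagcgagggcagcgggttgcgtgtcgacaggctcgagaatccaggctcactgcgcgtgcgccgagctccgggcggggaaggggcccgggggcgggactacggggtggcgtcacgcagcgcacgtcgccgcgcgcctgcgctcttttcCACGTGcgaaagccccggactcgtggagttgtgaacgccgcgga
RRP9, chr3:51941855-51942154, minus strand: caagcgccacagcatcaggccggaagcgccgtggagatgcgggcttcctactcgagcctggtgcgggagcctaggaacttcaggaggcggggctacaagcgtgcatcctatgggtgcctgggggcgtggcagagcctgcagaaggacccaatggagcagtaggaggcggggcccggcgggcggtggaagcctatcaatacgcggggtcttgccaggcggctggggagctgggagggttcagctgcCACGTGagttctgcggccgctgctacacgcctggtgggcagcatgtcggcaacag
PES1, chr22:30591861-30592160, minus strand: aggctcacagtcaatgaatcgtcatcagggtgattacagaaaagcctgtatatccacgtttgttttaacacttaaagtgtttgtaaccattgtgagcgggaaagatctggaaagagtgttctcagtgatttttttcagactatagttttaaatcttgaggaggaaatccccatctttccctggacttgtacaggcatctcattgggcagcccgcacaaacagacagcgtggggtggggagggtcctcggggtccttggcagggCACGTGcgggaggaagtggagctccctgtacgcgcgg
In these windows the E-box begins at base 7 after the start in FBL, base -5 in RRP9 and base 14 in PES1, with no base 0.

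The arrays of a line were not alike, and this bears on each value below. Over all genes E1 array 1 correlated at 0.933 with E1 array 2 and 0.920 with E1 array 3. It correlated at 0.957 to 0.963 with the HCT116 arrays, so it stood closer to them than to its own line. E1 arrays 2 and 3 correlated at 0.968 with each other. Their correlations with the HCT116 arrays were lower, at 0.923 to 0.939 for E1 array 2 and 0.897 to 0.907 for E1 array 3. The HCT116 arrays correlated at 0.969 to 0.985 with each other. The ratio of 3' to 5' signal of the GAPDH control transcript was 0.8025 on E1 array 1, 34.1 on E1 array 2 and 71.9 on E1 array 3, against 0.774 to 0.811 on the HCT116 arrays. A high ratio means that the 5' signal of this transcript read far below its 3' signal. No HCT116 array had such a ratio, so on E1 arrays 2 and 3 the line and the ratio cannot be told apart. Values are therefore given for each array. With this ratio as a covariate in the fit, 0 of the 45 genes were called and their median difference was -0.44, with RRP12 at -1.85 (adjusted p = 0.223). The ratio was high on E1 arrays 2 and 3 alone, so that fit rests largely on E1 array 1. Its values are close to those of E1 array 1 alone, a median of -0.43 and RRP12 at -1.91. It is therefore no separate check. The deposited intensities are linear. Each difference subtracts the HCT116 mean from the E1 mean of log2(intensity + 32), its standard error (SE) comes from a limma fit over all 11963 genes, and calls were made where the Benjamini-Hochberg adjusted p lay under 0.05. Intensities of different probe sets are not compared with each other, and the number of arrays limits the precision of each value. The 6 epithelial markers EPCAM, KRT8, KRT18, KRT19, CDH1 and CLDN4 summed to 11546 to 14955 on the E1 arrays and 16983 to 19522 on the HCT116 arrays. The sums were 218.8 to 326 and 294.6 to 344.8 for 5 fibroblast markers, 63.6 to 83.4 and 68.3 to 71.3 for 3 endothelial markers, and 18.3 to 59.6 and 19.9 to 46.7 for the 3 measured of 4 leukocyte markers. The epithelial markers did not move together. KRT8 had 2862, 372 and 103 in E1, against 4693, 3169 and 4352 in HCT116. KRT18 averaged 5918 in E1 and 7847 in HCT116, and KRT19 2170 and 3540. EPCAM went the other way, with 1691, 2950 and 3428 in E1, against 1956, 2009 and 1885 in HCT116. CDH1 averaged 716 in E1 and 705 in HCT116, and CLDN4 200 and 184.

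Of the 45 genes, 31 had a negative and 14 a positive difference, with a median of -0.125, against 50.9% negative and a median of -0.01 over all genes. With quantile normalization the median was -0.03 for the 45 and 0.08 for all genes, and with array medians subtracted it turned to 0.04 for the 45 and 0.16 for all genes. It was 0.06 without E1 array 1. RRP12 was called lower and 0 were called higher in the limma fit, where 0.201% of all genes were called lower and 0.217% higher, 0.418% in all. Without E1 array 1, 6 of the 45 were called lower (RRP12, NOL12, PES1, RRP1, RRP8 and RRP9) and 0 higher. In that fit 877 of all 11963 genes were called lower and 196 higher, 8.97% in either direction. For E1 it holds only arrays 2 and 3, whose GAPDH ratios were high. At an unadjusted p under 0.05, 9 were lower and 0 higher, that is 20% of the factors against 9.70% of all genes on the lower side and 5.29% on the higher side. The 3 E1 arrays lay below all 3 HCT116 arrays for 12 genes (26.7%, against 10.7% of all genes), and in 0 genes above them (8.18% of all genes). A difference of at least 2-fold was seen for 5 genes, all lower in E1 (11.1%, against 4.55% of all genes lower and 0.920% higher). On E1 array 1 their shifts were -1.91 for RRP12, -0.92 for NOL12, -0.84 for RRP9, -0.67 for PES1 and -0.35 for RRP1. RRP12 alone reached 2-fold on that array, and the others reached it through E1 arrays 2 and 3, whose GAPDH ratios were high.

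**Figure D1:**
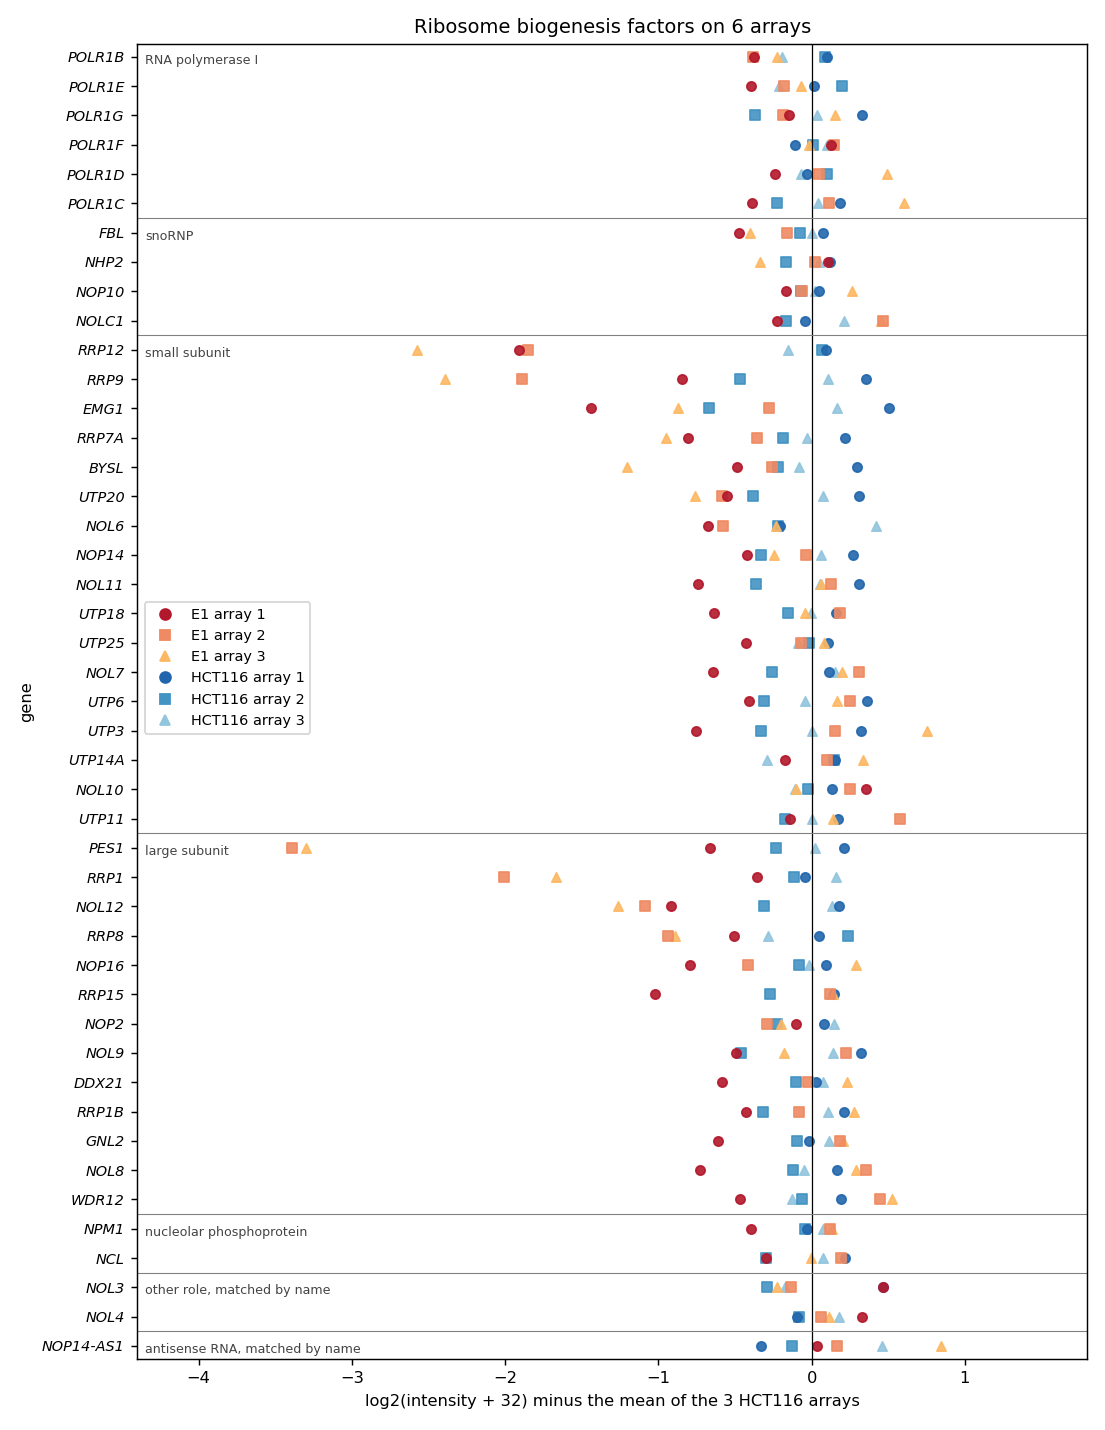
Each row is 1 of the 45 genes, grouped by role, and each point is 1 array, placed at its log2(intensity + 32) minus the mean of the 3 HCT116 arrays. E1 array 1 (dark red circles) lies left of 0 for 39 of the 45 genes, while E1 arrays 2 and 3 lie far left for RRP12, PES1, RRP9, RRP1 and NOL12 and near or right of 0 for many others.

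The pattern differed between the E1 arrays. On E1 array 1, whose GAPDH ratio was that of the HCT116 arrays, 39 of the 45 genes read below the HCT116 mean (86.7%, against 56.4% of all genes), and 35 read below each of the 3 HCT116 arrays (77.8%, against 33.0% of all genes). Another 4 read above each of them (8.89%, against 24.7% of all genes). The median shift of the 45 on that array was -0.43, against -0.05 for all genes. It was -0.02 on E1 array 2 and -0.00293 on E1 array 3, where 23 of the 45 genes lay below the HCT116 mean on each. E1 arrays 2 and 3 both read above E1 array 1 for 28 of the 45 genes (62.2%, against 40.3% of all genes) and both below it for 11 (24.4%, against 33.3%).

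Restricting the view to genes in the upper 50% by mean signal, where 38 of the 45 lie, 32 of 38 read below each HCT116 array on E1 array 1 (84.2%, against 42.1% of all genes in that range). Quantile normalization left 27 of the 45 below each HCT116 array (60%, against 25.6% of all genes) with a median shift of -0.27. Subtraction of array medians left 34 (75.6%, against 29.3%) with a median of -0.39. When E1 array 1 alone was set against HCT116 in limma, with the spread taken from HCT116, 13 genes were lower and 0 higher at an unadjusted p under 0.05 (28.9%, against 7.05% of all genes on the lower and 4.44% on the higher side). None of the 45 was called there at an adjusted p under 0.05, and 0.0167% of all genes were.

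The HCT116 arrays also differed among themselves for these genes. The median level of the 45, as log2(intensity + 32), was 8.28, 8.52 and 8.58 on E1 arrays 1, 2 and 3, against 9.07, 8.47 and 8.67 on HCT116 arrays 1, 2 and 3. HCT116 array 1 read above HCT116 array 2 for 39 of the 45 (86.7%, against 60.9% of all genes), with a median difference of 0.29. E1 array 1 read above HCT116 array 2, which had the lowest median of the HCT116 arrays for these genes, for 9 of the 45 (20%, against 48.5% of all genes), with a median difference of -0.36.

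**Figure D2:**
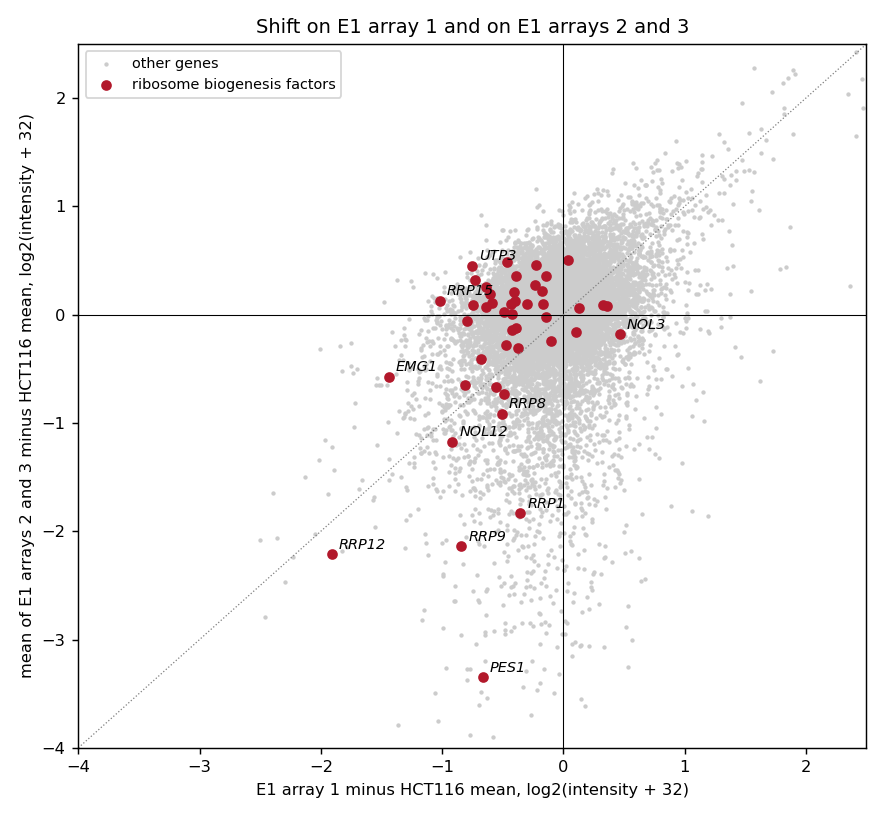
Each point is a gene; the x axis gives E1 array 1 and the y axis the mean of E1 arrays 2 and 3, both as log2(intensity + 32) minus the same HCT116 mean, so the axes share the HCT116 arrays. The 45 factors (red) lie mostly left of 0, and PES1, RRP9 and RRP1 lie far below the dotted line of equal shift; 26 genes, none of them a factor, fall outside the axes.

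The RNA polymerase I subunits transcribe the ribosomal RNA precursor, and 6 were measured, with 0 at an unadjusted p under 0.05. Their differences went from -0.33 to 0.11, 3 positive and 3 negative. POLR1B, the second largest catalytic subunit, had 89.9, 89.3 and 103 on the E1 arrays, against 138, 136 and 107 on the HCT116 arrays. Its arrays did not overlap, but the difference of -0.33 (SE 0.14, adjusted p = 0.352) did not pass. POLR1C, which RNA polymerase I shares with RNA polymerase III, had 270, 396 and 568 in E1, against 418, 306 and 374 in HCT116. POLR1D, another shared subunit, had 1403, 1717 and 2346 in E1, against 1620, 1781 and 1578 in HCT116. In both of these probe sets E1 array 1 read below and E1 array 3 above every HCT116 array. The other POLR1C probe set had 319, 307 and 347 in E1, against 488, 353 and 480 in HCT116, and was lower on all 3 E1 arrays, at -0.39 (SE 0.16, adjusted p = 0.285 over all probe sets). The subunits POLR1E, POLR1F and POLR1G stood at -0.21, 0.08 and -0.06.

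The small nucleolar ribonucleoproteins were represented by 4 genes, with differences from -0.35 to 0.23. FBL, fibrillarin, the methyltransferase of the box C/D particles, had 2465, 3071 and 2592 in E1, against 3625, 3257 and 3452 in HCT116. All E1 arrays read below all HCT116 arrays, and E1 averaged 2709 ± 320 against 3445 ± 184 (SD, n = 3 each), a difference of -0.35 (SE 0.14, unadjusted p = 0.0471, adjusted p = 0.329 in limma). The difference of FBL depended on the scaling, with -0.31 after quantile normalization and -0.18 with array medians subtracted. NOP10, a small protein of the box H/ACA particles, had 2614, 2816 and 3531 in E1, against 3036, 2803 and 2986 in HCT116, and the groups overlapped. NHP2, its partner in these particles, stood at -0.07 (SE 0.17). NOLC1, a phosphoprotein that chaperones these particles, stood at 0.23 (SE 0.23), but its probe sets disagreed, as described below.

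Among the 17 factors of the small subunit, 12 differences were negative and 5 positive, with a median of -0.18. RRP12, which in yeast takes part in subunit maturation and export, had 23.7, 26.1 and 3.20 on the E1 arrays, against 191, 187 and 156 on the HCT116 arrays. The groups were far apart and E1 array 1 was about as low as E1 array 2. RRP12 fell to 17.7 ± 12.6 in E1, against 178 ± 19.4 in HCT116 (SD, n = 3 each), a difference of -2.11 (SE 0.22, adjusted p = 0.0254 in limma). With E1 array 1 alone the difference was -1.91. With E1 arrays 2 and 3 alone, whose GAPDH ratios were high, it was -2.21 (adjusted p = 0.00618 in limma). The call was lost on leaving out any 1 of the HCT116 arrays or E1 array 2, with adjusted p from 0.0717 to 0.187 at values from -2.24 to -2.07. Since the E1 signal was low, the size depends on the offset, with -3.66 (adjusted p = 0.114) at an offset of 1 and -1.24 (adjusted p = 0.0466) at 100. The call was also lost without _x_at and _s_at probe sets (-0.55, adjusted p = 0.551) and with the replicate block (adjusted p = 0.137).

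RRP9, a protein of the U3 particle that starts cleavage of the precursor, had 265, 112 and 69.6 in E1, against 649, 354 and 542 in HCT116. E1 arrays 2 and 3 read under E1 array 1 and all 3 read under HCT116, and the difference was -1.71 (SE 0.42, adjusted p = 0.182). It was -0.84 with E1 array 1 alone. With E1 arrays 2 and 3 alone, whose GAPDH ratios were high, it was -2.14 (adjusted p = 0.0116 in limma). RRP7A, a processome protein, had 68.3, 105 and 59.0 in E1, against 172, 122 and 140 in HCT116, a difference of -0.70 (SE 0.20, adjusted p = 0.225). UTP20, a large scaffold of the processome, had 130, 126 and 108 in E1, against 262, 150 and 218 in HCT116, a difference of -0.63 (SE 0.20, adjusted p = 0.260). BYSL, needed for the precursor of the 40S subunit, and NOL6, a processome protein, also had non-overlapping arrays, at -0.65 (SE 0.28) and -0.50 (SE 0.23), without passing.

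In other small subunit genes E1 array 1 stood apart from E1 arrays 2 and 3. UTP18, a processome protein, had 998, 1788 and 1524 in E1, against 1756, 1407 and 1566 in HCT116, so that E1 array 1 read under HCT116 and E1 arrays 2 and 3 read among or above its arrays. NOL11, which acts early in transcription and processing, had 778, 1448 and 1378 in E1, against 1644, 1022 and 1374 in HCT116. EMG1, a methyltransferase of 18S RNA, had 520, 1206 and 787 in E1, against 2091, 908 and 1650 in HCT116, with a difference of -0.86 (SE 0.40, adjusted p = 0.373). HCT116 array 2 lay between the E1 arrays, so the groups overlapped. NOP14, UTP25, NOL7, UTP6, UTP3, UTP14A, NOL10 and UTP11 had differences from -0.23 to 0.19.

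**Figure D3:**
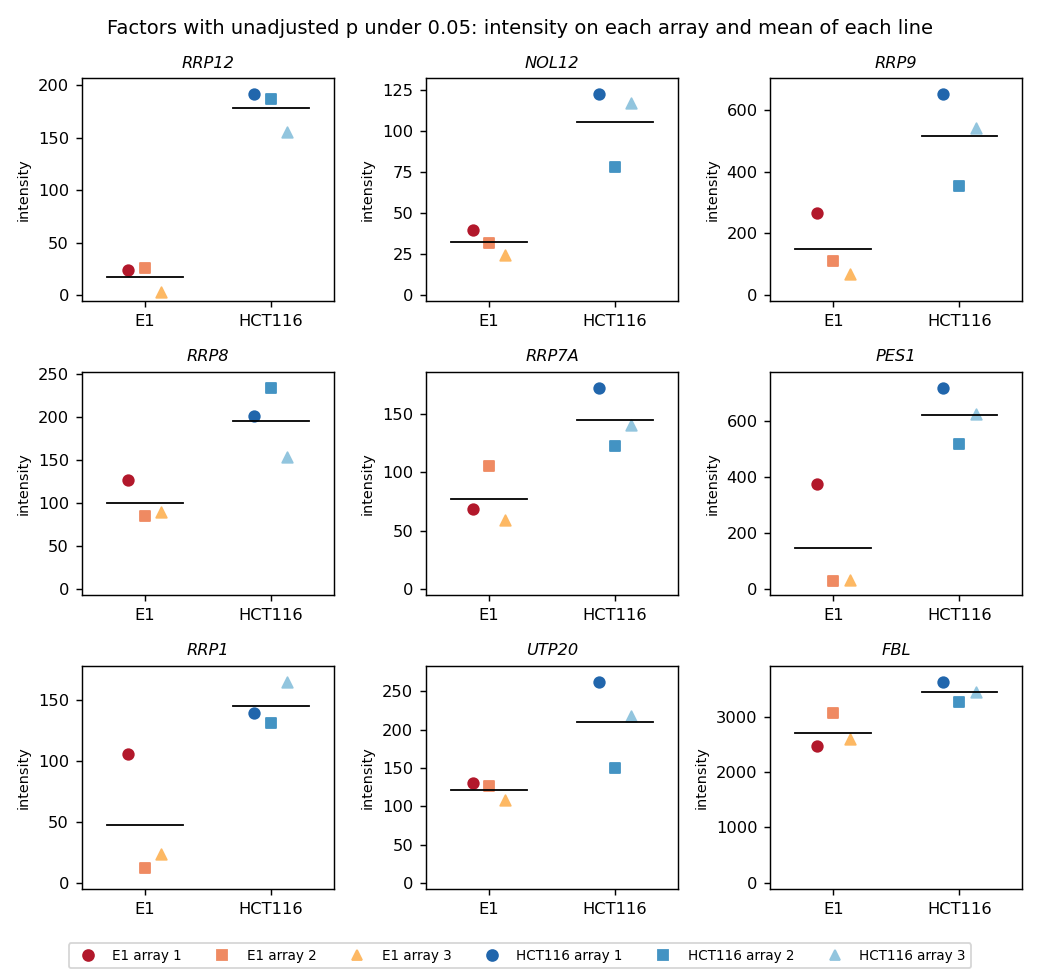
The intensity of each of the 9 genes with an unadjusted p under 0.05 is plotted on a linear axis from 0, with 1 point per array, E1 left and HCT116 right, and a line at the mean of each line. In each of the 9 the E1 arrays lie below the HCT116 arrays, and for PES1 and RRP1 E1 array 1 lies nearer to HCT116 while E1 arrays 2 and 3 lie near 0.

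Among the 13 factors of the large subunit, 12 differences were negative and 1 positive, with a median of -0.20. PES1, which forms the PeBoW complex with BOP1 and WDR12 and is needed for 28S and 5.8S maturation, had 377, 29.7 and 33.8 in E1, against 718, 519 and 627 in HCT116. E1 array 1 read far above E1 arrays 2 and 3, and all E1 arrays lay below HCT116. The difference was -2.45 (SE 0.71, adjusted p = 0.230 in limma), and -0.67 with E1 array 1 alone. With E1 arrays 2 and 3 alone, whose GAPDH ratios were 34.1 and 71.9, it was -3.35 (adjusted p = 0.00114 in limma). In that fit 8.97% of all genes were called. WDR12, its partner, had 704, 1354 and 1431 in E1, against 1129, 941 and 900 in HCT116. There E1 array 1 read below and E1 arrays 2 and 3 above every HCT116 array, with a difference of 0.17 (SE 0.28). The 2 measured genes of this complex thus had opposite signs on E1 arrays 2 and 3 and the same sign on E1 array 1. High GAPDH ratios occurred on E1 arrays 2 and 3 and on no HCT116 array. Whether the opposite signs go with the line or with these ratios was not tested and cannot be decided from these arrays.

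RRP1, a processing factor of the large subunit, had 106, 12.0 and 23.6 in E1, against 140, 131 and 165 in HCT116, with a difference of -1.34 (SE 0.41, adjusted p = 0.250). It was -0.35 with E1 array 1 alone. With E1 arrays 2 and 3 alone, whose GAPDH ratios were high, it was -1.84 (adjusted p = 0.00407 in limma). NOL12, which acts in cleavage of the spacer between the subunits' RNAs, had 39.99, 32.1 and 24.7 in E1, against 122, 77.8 and 117 in HCT116. All 3 E1 arrays were low to a like degree, and the difference was -1.09 (SE 0.19, adjusted p = 0.0952). It was -0.92 with E1 array 1 alone. With E1 arrays 2 and 3 alone, whose GAPDH ratios were high, it was -1.18 (adjusted p = 0.0226 in limma). RRP8, a nucleolar methyltransferase, had 126, 85.3 and 89.3 in E1, against 201, 233 and 153 in HCT116, a difference of -0.78 (SE 0.20, adjusted p = 0.191).

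DDX21, an RNA helicase of the nucleolus, had 1869, 2780 and 3322 in E1, against 2875, 2626 and 2977 in HCT116, and E1 array 1 alone read under HCT116. RRP15 had 134, 334 and 340 in E1, against 340, 247 and 337 in HCT116, and had a shift of -1.02 on E1 array 1. NOP16, NOL8 and GNL2, a GTPase of large subunit assembly, had shifts of -0.79, -0.73 and -0.61 on E1 array 1, and their differences over all arrays were -0.31, -0.03 and -0.07. NOP2, a methyltransferase of 28S RNA, NOL9, a polynucleotide kinase, and RRP1B stood at -0.20, -0.15 and -0.08.

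The nucleolar phosphoproteins nucleolin and nucleophosmin did not pass. NCL had 3331, 4686 and 4089 in E1, against 4772, 3333 and 4325 in HCT116, a difference of -0.04 (SE 0.20, adjusted p = 0.968). NPM1 had 3917, 5630 and 5666 in E1, against 5059, 5020 and 5447 in HCT116, a difference of -0.05 (SE 0.18, adjusted p = 0.950). E1 array 1 read below the other 2 E1 arrays in both genes. NPM1 has processed pseudogenes, so its probe sets may also read other transcripts.

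The 3 genes that share only the name were given by array as well. NOL3 had 207, 126 and 116 in E1, against 207, 109 and 122 in HCT116. NOL4 had 12.6, 5.14 and 6.45 in E1, against 1.25, 1.59 and 8.18 in HCT116. NOP14-AS1 had 21.1, 25.96 and 61.2 in E1, against 9.15, 15.5 and 39.1 in HCT116. None read below every HCT116 array on E1 array 1. Without them 39 of 42 factors lay below the HCT116 mean on that array, with a median shift of -0.47.

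Several probe sets were present for 16 of the 45 genes, and they did not always give 1 answer. Of the 27 probe sets that did not stand for their gene, 15 had the same sign as the one that did and 12 the opposite sign, and of 13 with a mean intensity of at least 100, 6 had the same sign. A second RRP12 probe set had 19.7, 7.21 and 32.8 in E1, against 136, 187 and 99.8 in HCT116 (difference -1.73, adjusted p = 0.0514 over all probe sets). Its remaining probe set had 92.1, 26.3 and 13.9 in E1, against 81.4, 60.5 and 68.2 in HCT116, so that E1 array 1 read above HCT116 there (-0.55, adjusted p = 0.512). The first is an _s_at and the second an _x_at probe set, types that can match several transcripts, and the remaining one is neither.

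NOLC1 had the other probe set called when single probe sets were tested, where 0.871% of all probe sets were called. It had 197, 135 and 144 in E1, against 482, 463 and 587 in HCT116, a difference of -1.52 (SE 0.17, adjusted p = 0.0255). NOLC1's own representative had 1481, 2407 and 2390 in E1, against 1682, 1545 and 2016 in HCT116, with E1 arrays 2 and 3 above every HCT116 array. RRP1B likewise stood at -0.08 with 1 probe set and at -1.61 (adjusted p = 0.0614) with the other, which had 78.8, 23.6 and 37.9 in E1, against 217, 183 and 195 in HCT116. UTP18 had a second probe set at -0.54 (adjusted p = 0.0946), lower on all 3 E1 arrays. Both RRP7A probe sets were lower, at -0.70 and -1.05. All 3 NPM1 probe sets were lowest on E1 array 1.

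**Figure D4:**
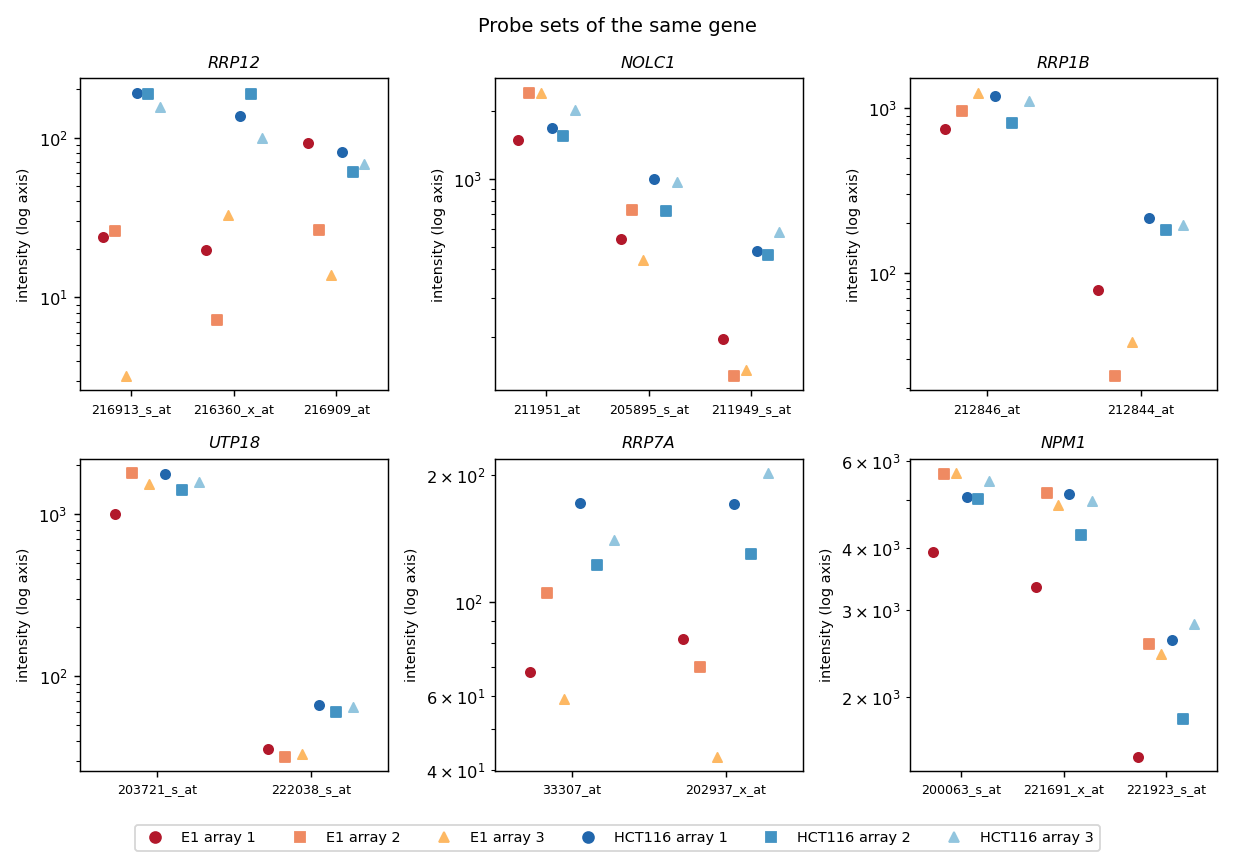
For 6 genes with several probe sets, each column of points is 1 probe set and each point 1 array, on a log axis of intensity. The E1 arrays lie under HCT116 in both RRP7A probe sets and in 2 of 3 RRP12 probe sets, while NOLC1, RRP1B and UTP18 each have a probe set where the lines overlap and another where E1 lies lower.

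Other genes of the pathway, from lists of 131 measured genes that are none of the 45, were read in the same way. None was called over all genes in limma. At an unadjusted p under 0.05, 31 were lower and 0 higher, where 9.70% of all genes were lower and 5.29% higher. Of the 131, 95 were negative and 36 positive, with a median of -0.21, where 50.9% of all genes were negative. On E1 array 1, 119 of the 131 read below the HCT116 mean (90.8%, against 56.4% of all genes), with a median shift of -0.45. On E1 array 2 it was 73 (55.7%, against 54.2% of all genes; median -0.07) and on E1 array 3 it was 75 (57.3%, against 44.8%; median -0.11). The 131 had a median intensity of 339 in E1 and 393 in HCT116, against 87.4 and 94.8 for all genes. Among all genes in the upper 50% by mean signal, 65.3% read below the HCT116 mean on E1 array 1, with a median shift of -0.15. The 28 other genes of the small subunit had a median of -0.38, with 26 negative (50.9% of all genes) and 8 lower at an unadjusted p under 0.05 (9.70% of all genes). They were led by TBL3, a processome scaffold, with 126, 139 and 96.0 in E1, against 344, 219 and 266 in HCT116 (-1.01, adjusted p = 0.134), and BUD23, a methyltransferase of 18S RNA, at -0.92 (adjusted p = 0.185).

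The 35 other genes of the large subunit had a median of -0.21, with 22 negative (50.9% of all genes) and 10 lower at an unadjusted p under 0.05 (9.70% of all genes). On E1 array 1, 33 of 35 lay below the HCT116 mean (56.4% of all genes). The median shift was -0.48 on E1 array 1, -0.01 on E1 array 2 and -0.002 on E1 array 3. SENP3, a protease for SUMO that acts on assembly factors, had 111, 58.2 and 26.8 in E1, against 349, 253 and 255 in HCT116 (-1.79, adjusted p = 0.119), and DDX51, a helicase, stood at -1.23 (adjusted p = 0.138). In the 21 genes of the exosome and ribosomal RNA nucleases, 15 were negative and 5 lower at an unadjusted p under 0.05 (9.70% of all genes), led by RPP14, a subunit of RNase P and MRP, at -0.51 (adjusted p = 0.179), and EXOSC4, an exosome subunit, at -0.87 (adjusted p = 0.217). Of 16 RNA polymerase III genes 12 were negative and 5 lower at an unadjusted p under 0.05 (9.70% of all genes), led by POLR3E, a subunit of the enzyme, at -0.61 (adjusted p = 0.231) and GTF3C5, of its initiation factor TFIIIC, at -0.97 (adjusted p = 0.271).

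Of 20 genes of RNA polymerase I initiation and its control 12 were negative and 2 lower at an unadjusted p under 0.05, a share near the 9.70% of all genes. POLR2E, a subunit that all 3 nuclear RNA polymerases share, had 1141, 238 and 126 in E1, against 2323, 1398 and 2339 in HCT116 (-2.44, adjusted p = 0.230), and BAZ2A, of the complex that silences ribosomal DNA, stood at -1.15 (adjusted p = 0.284). Of 11 other snoRNP and snoRNP assembly genes 8 were negative, and 1 was lower at an unadjusted p under 0.05, also near the share of all genes: NUFIP1, which acts in box C/D particle assembly, at -0.43 (adjusted p = 0.324). ZNHIT3, of the same assembly pathway, had the next smallest p, at 0.42 (adjusted p = 0.462). For comparison, 57 genes of ribosomal proteins, which are the product side of the pathway, had a median difference of 0.01 and a median shift of -0.02 on E1 array 1. On that array 38 of the 57 read below the HCT116 mean, where 56.4% of all genes did.

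**Figure D5:**
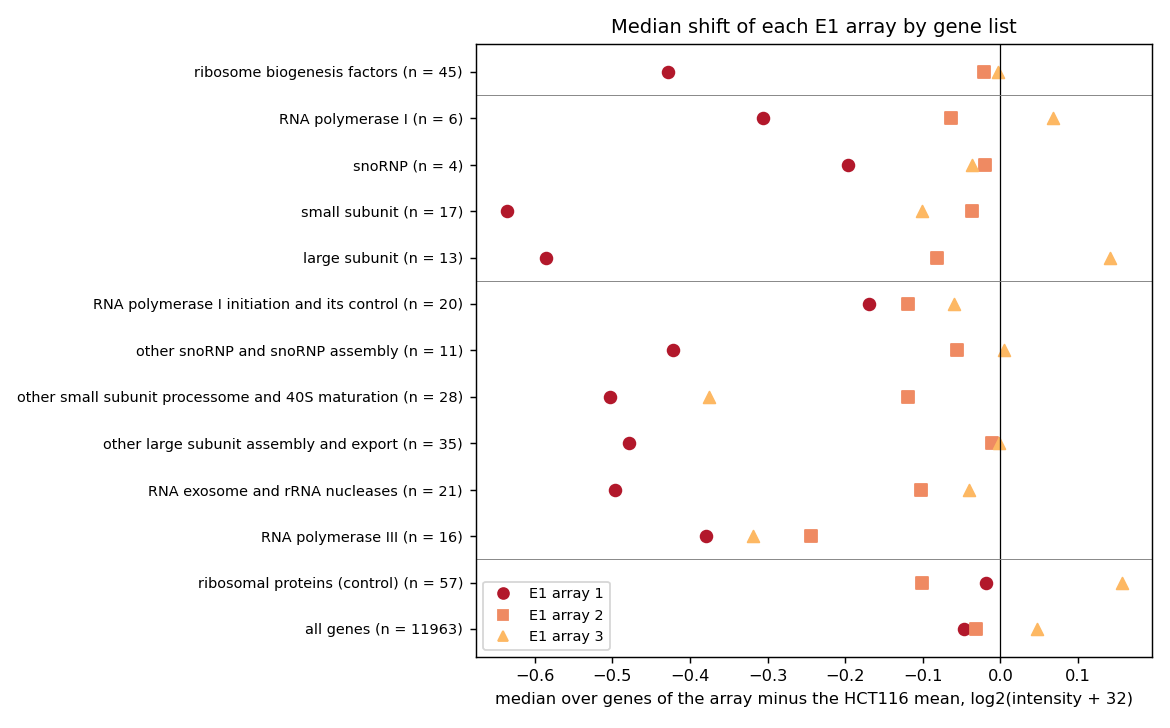
Each row is a gene list with its number of measured genes, and the 3 points give the median over its genes of E1 arrays 1, 2 and 3 minus the HCT116 mean in log2(intensity + 32). The ribosome biogenesis lists lie left of 0 on E1 array 1, between -0.64 and -0.17, and ribosomal proteins and all genes lie at -0.02 and -0.05. All genes in the upper 50% by mean signal, which are not drawn, had a median of -0.15 on that array, close to the lists at -0.17 and -0.20.

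The 16 genes with CACGTG in the promoter window had a median shift of -0.52 on E1 array 1, with 13 of 16 below every HCT116 array, and the 24 without it had -0.40, with 18 of 24, where 33.0% of all genes lay below every HCT116 array. Among all genes in the upper 50% by mean signal this share was 42.1%. All 3 E1 arrays lay below HCT116 for 6 of the 16 and 5 of the 24, where 10.7% of all genes did. These counts are a description, since no test was made between the sets. MYC itself had 1688, 1602 and 3379 in E1, against 1782, 2886 and 1906 in HCT116. Its difference was -0.03 (SE 0.34, adjusted p = 0.984 in limma), and the groups overlapped. A link between MYC and these genes was not tested.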

How the data were processed

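Each array's deposited column gives a linear intensity for every probe set, made from Trizol-extracted total RNA labelled with biotin, per the labels' protocols. For summarization, background correction and scaling, no method is stated in the labels or files. Intensities were transformed as log2(intensity + 32). Of 22283 probe sets, 68 controls, 1043 with several gene symbols and 2107 not listed with a symbol were left out. Each gene was represented by its probe set of highest mean. E1 was set against HCT116 by lmFit and eBayes of limma 3.58.1 (R 4.3.3, two-sided), with Benjamini-Hochberg adjustment over 11963 genes. The fit was checked on simulated data with independent noise of the same spread in both lines. Those data held no array effects, so the check does not bear on the differences between the E1 arrays. Alternatives were quantile normalization, subtraction of array medians, an offset of 1 or 100, removal of the lowest 40% of genes, the mean of probe sets, leaving out _x_at and _s_at probe sets, single probe sets, a trended robust fit, a replicate block, E1 array 1 alone, the GAPDH ratio as covariate, leaving out each array, and a threshold of 0.01.

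The genes, lists, motifs and alternatives were chosen with earlier results of these data known, so they are no independent support. Per-array values are given for the called gene, for up to 15 genes at an unadjusted p under 0.05, for the 2 highest means in each role group, and for NCL, NPM1 and FBL (POLR1A, also in the rule, was not analysed here). Other genes given by array were chosen after their values were seen, as were the counts on E1 array 1. In the pathway lists called genes, or else the 2 with the smallest p, are named, and MYC is given because its motif is described. Promoter sequences are RefSeq's, on GRCh38.p14.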

Additional observations from a re-analysis of the deposited data

How the results depend on the processing

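With 1 factor called lower, quantile normalization, subtracted array medians, an offset of 100, the lowest 40% of genes left out, the mean of probe sets and the trended robust fit also called 1, in each case RRP12. The count was 0 with an offset of 1, without _x_at and _s_at probe sets (31 genes left), with E1 array 1 alone, with the GAPDH ratio as covariate and at an adjusted p under 0.01, and 2 over single probe sets. Leaving out each array gave 0 to 6, with 6 without E1 array 1. The count of factors called higher was 0 in all of these. RRP12 stood at -3.66 (adjusted p = 0.114) with an offset of 1, at -0.55 (0.551) without _x_at and _s_at probe sets, and at -1.85 (0.223) with the GAPDH covariate, and its adjusted p over the arrays left out was 0.00618 to 0.187. The cause was not tested.

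The replicate numbers were not taken to pair the samples. Same-numbered arrays correlated at -0.0564, -0.363 and -0.116 in their deviations from the group means. With 3 arrays per line, and E1 array 1 apart from E1 arrays 2 and 3, this cannot show whether same-numbered arrays were handled together. With the replicate block 0 factors were called lower, RRP12 had an adjusted p of 0.137 at -2.11, and 1 gene of all was called higher and 1 lower.

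Over all genes 26 were called higher and 24 lower. The counts were 44 higher with quantile normalization and with subtracted medians, 5 higher and 5 lower with an offset of 100, 5 and 3 without _x_at and _s_at probe sets, 47 and 119 over single probe sets, 1 and 1 with E1 array 1 alone and with the GAPDH covariate, and 2 and 1 at 0.01. Leaving out each array gave 1 to 196 higher and 1 to 877 lower. The median of the factors was -0.43 with E1 array 1 alone, -0.44 with the GAPDH covariate and -0.23 to 0.06 over the arrays left out. The fit with the GAPDH covariate also rests largely on E1 array 1, so it is not independent of the fit with that array alone.

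Genes that did not pass also changed sign. With subtracted medians DDX21 stood at 0.039, NCL at 0.13 and NPM1 at 0.12, and with quantile normalization NCL stood at 0.013 and NPM1 at 0.023. With the mean of probe sets NOL3 stood at -0.027 and POLR1C at -0.14, and RRP8 stood at 0.24 without _x_at and _s_at probe sets. With E1 array 1 alone NOP10, POLR1C, POLR1D and WDR12 stood at -0.17, -0.39, -0.24 and -0.47, and with the GAPDH covariate at -0.19, -0.42, -0.27 and -0.46, with NOP14-AS1 at -0.013. Over the arrays left out the ranges were -0.30 to 0.11 for DDX21, -0.18 to 0.095 for NCL, -0.37 to 0.094 for NOL11, -0.18 to 0.27 for NOL3, -0.11 to 0.10 for NOP10, -0.14 to 0.13 for NPM1, -0.14 to 0.36 for POLR1C, -0.093 to 0.27 for POLR1D, -0.34 to 0.071 for UTP18 and -0.0098 to 0.49 for WDR12.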
